A study of Homo sapiens with 4 samples.

Results

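The 14q32 imprinted miRNA cluster was followed here through 55 mature miRNA names, taken from a list of the miRNAs that derive from the DLK1-DIO3 region of chromosome 14. In the files they carry the prefix hsa-, as in hsa-miR-379, hsa-miR-127-3p and hsa-miR-369-3p, which is left out below. All 55 were among the 1100 names in each library. The rule uses no measured value, but the members were chosen with earlier results of these data known. Small RNA was sequenced from 4 libraries, 1 for each group: MDA-MB-231 cells, exosomes of MDA-MB-231 cultures, MCF-10A cells and exosomes of MCF-10A cultures. MDA-MB-231 is an established human line from a metastatic breast cancer, and MCF-10A is an immortalised, non-tumorigenic human breast epithelial line. Exosomes are small membrane vesicles shed into the culture medium. Below, the MDA-MB-231 libraries are called cancer-line cells and cancer-line exosomes. MDA-MB-231 was kept in DMEM with 10% FBS (fetal bovine serum). MCF-10A was kept in DMEM/F12 with 5% horse serum and added insulin, EGF, cholera toxin and hydrocortisone. Line, medium and serum therefore cannot be told apart in any comparison between the lines. The labels name no gene alteration or drug for any group. With 1 library per group there was no replicate, so no test of a difference between conditions was possible, and intervals and floors below cover counting error only. No molecular identifiers are named, so PCR reads are not independent molecules.

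The DLK1-DIO3 region is imprinted: its miRNAs are made from the maternally inherited chromosome, together with the noncoding RNAs MEG3, MEG8 and MEG9, while the protein-coding genes DLK1, RTL1 and DIO3 are read from the paternal copy. The miRNAs are abundant in brain, placenta and embryonic tissue and low in many adult epithelia. One group of hairpins lies beside MEG3 and opposite RTL1, and a denser group runs from miR-379 to miR-656. A mature miRNA recognises mRNAs mainly through its seed, bases 2 to 8, so names that share a seed can share targets.

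The sequences that carry the results are those with at least 10 reads in cancer-line exosomes, in the order of their level there. They are printed 5′ to 3′ from RefSeq with build GRCh38.p14, and the capitals mark the seed. Names without an arm were taken as the arm that the older miRNA naming meant by them.
miR-379: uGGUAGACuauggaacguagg
miR-127-3p: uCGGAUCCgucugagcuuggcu
miR-369-3p: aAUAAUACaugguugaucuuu
miR-411: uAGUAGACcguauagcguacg
miR-432: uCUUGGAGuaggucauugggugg
miR-382: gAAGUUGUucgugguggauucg
miR-494: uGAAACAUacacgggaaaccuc
miR-409-3p: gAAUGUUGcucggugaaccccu
miR-381: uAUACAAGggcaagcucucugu
miR-493: uGAAGGUCuacugugugccagg
miR-410: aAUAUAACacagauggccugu
miR-370: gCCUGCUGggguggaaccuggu
miR-127-5p: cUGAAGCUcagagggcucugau
miR-136: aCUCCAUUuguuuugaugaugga
miR-495: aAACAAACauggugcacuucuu
No seed occurred more than once among these 15. The next set is shown because its members are among the 10 highest of the library labelled MCF-10A cell but had fewer than 10 reads in cancer-line exosomes.
miR-376c: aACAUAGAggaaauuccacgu
miR-654-3p: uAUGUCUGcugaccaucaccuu
miR-377: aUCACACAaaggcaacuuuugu
The last set holds close copies of members above and names that share a seed, among which close copies are hard to tell apart by their reads.
miR-376a: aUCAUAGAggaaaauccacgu
miR-376b: aUCAUAGAggaaaauccauguu
miR-300: uAUACAAGggcagacucucucu
miR-541: uGGUGGGCacagaaucuggacu
miR-654-5p: uGGUGGGCcgcagaacaugugc
The seed AUACAAG was shared by miR-300 and miR-381, the seed UCAUAGA by miR-376a and miR-376b, and the seed GGUGGGC by miR-541 and miR-654-5p. miR-376a and miR-376b differed at 1 of 21 positions, miR-376a and miR-376c at 2, and miR-300 and miR-381 at 3 of 22. How reads that match several such names were assigned is not given in the sources used here, so the split within these pairs is uncertain. The miR-376 family is also known for A-to-I editing in its seed, which was not measured here.

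Sequences were found for 54 of the 55 members, 20 by the same name and 34 by arm, and miR-668 was not matched. The matched members were 20 to 23 nt long, with a GC content of 23.8% to 72.7% and a median of 45.5%. Adenine began 23 of them, uracil 22, guanine 6 and cytosine 3. The RefSeq table places 47 hairpins of the region on the plus strand of chr14:100852390-101066801 (GRCh38.p14), a span of 214 kb. Among them are MIR1193 and MIR323B, whose names are not members. The hairpins of miR-370, miR-381, miR-412 and miR-432 are not among the 47, although their mature sequences were placed on the same strand. On the MEG3 side, MIR431, MIR433, MIR127 and MIR136 lie opposite an exon of RTL1, and MIR770 overlaps an exon of MEG3. Among the denser group, the hairpins from MIR379 to MIR495 lie in an intron of MEG8, and those from MIR487B to MIR655 in an intron of MIR381HG. MIR541, MIR409, MIR369 and MIR656 lie in an intron of MEG9, whereas MIR410 overlaps a MEG9 exon. For the hairpins from MIR376C to MIR1185-2 and from MIR487A to MIR377, no overlapping gene other than those of miRNAs was annotated. The most abundant sequences map to chr14:101022071-101022091 for miR-379 and chr14:100883035-100883056 for miR-127-3p. The median GC content was 47.6% in the 15 members with at least 10 reads in cancer-line exosomes, 45.5% in the 18 with 1 to 9 reads and 45.5% in the 21 matched members with 0.

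Levels are log2 of reads per 10000000 miRNA reads plus 1, as deposited, and are not scaled by length, since a read spans a whole mature miRNA. Recovered depths were 1532908 reads for cancer-line exosomes, 7346076 for cancer-line cells, 1254641 for exosomes of MCF-10A and 10937895 for the library with the label MCF-10A cell. A name with 0 reads may have up to 3, which corresponds, library by library, to 19.6, 4.08, 23.9 and 2.74 reads per 10000000. One library, labelled MCF-10A cell, was unlike the rest. Its 68 names of erythroid, leukocyte, liver, muscle, stromal, endothelial, neural and placental lists held 48.1% of its reads, against 2.48% in cancer-line exosomes, 0.0730% in cancer-line cells and 0.0849% in exosomes of MCF-10A. Its most abundant name was miR-143 at 21.37, a miRNA of smooth muscle and fibroblasts. Its epithelial list (the miR-200 family, miR-205 and miR-203) summed to 100764 reads per 10000000, and that of exosomes of MCF-10A to 440979. No other MCF-10A cell library was analysed here, so each result that rests on it has no counterpart without it.

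The cluster was abundant in cancer-line exosomes and in the library with the label MCF-10A cell, and close to absent from the other libraries. It held 3498 reads in cancer-line exosomes, 13 in cancer-line cells, 52 in exosomes of MCF-10A and 31683 in the library with the label MCF-10A cell. As a share of all miRNA reads this was 0.228% (Wilson 95% interval 0.221 to 0.236), 0.000177% (0.000103 to 0.000303), 0.00414% (0.00316 to 0.00543) and 0.290% (0.286 to 0.293). The summed level was thus 22819, 17.7, 414 and 28966 reads per 10000000. In such bulk samples, fewer cells or vesicles of a kind and less of a miRNA in each cannot be told apart.

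Members above 0 numbered 33 in cancer-line exosomes (60% of 55), 8 in cancer-line cells (14.5%), 13 in exosomes of MCF-10A (23.6%) and 52 in the library with the label MCF-10A cell (94.5%). Over all 1100 names the shares above 0 were 46.2%, 51.5%, 39.6% and 72.2%. Cancer-line cells thus had the second largest share of all names and the smallest share of members. A level of at least 10 reads was reached by 15 members in cancer-line exosomes, 0 in cancer-line cells, 1 in exosomes of MCF-10A and 48 in the library with the label MCF-10A cell. Over all 1100 names, 27.3%, 35.2%, 24% and 56.3% reached it. By this count the members of cancer-line exosomes did not exceed the share of names in general. The deepest library was also the one with the most members above 0, and the exosome libraries were the shallowest.

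**Figure D1:**
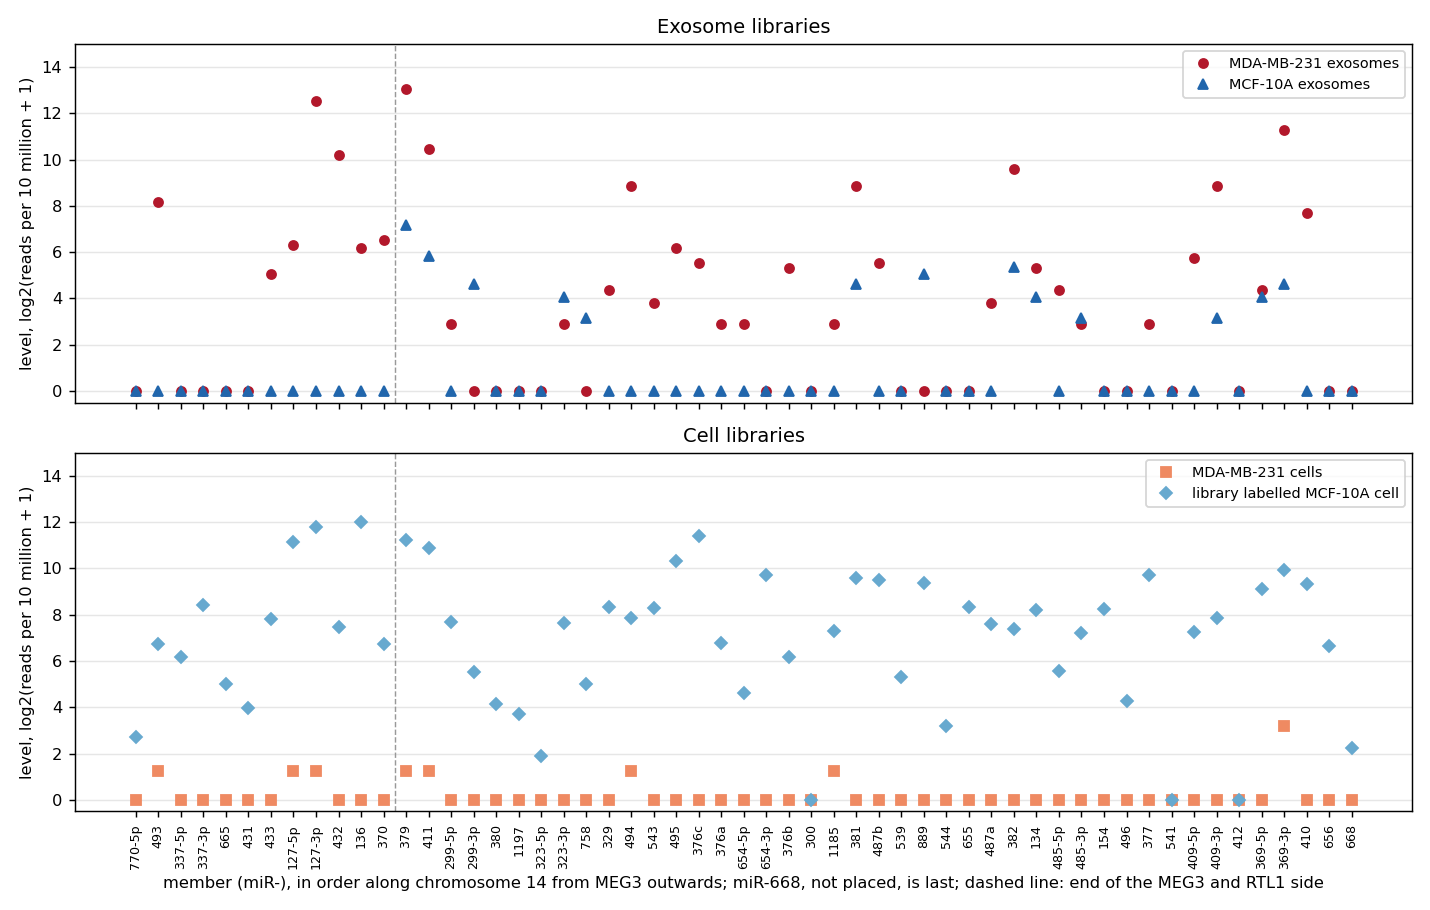
Level of each of the 55 members, as log2(reads per 10000000 + 1), in the exosome libraries (top) and the cell libraries (bottom), in order along the cluster; each point is 1 library. Levels reach 13.04 in MDA-MB-231 exosomes and 11.99 for the library with the label MCF-10A cell, while MDA-MB-231 cells stay at or below 3.20, and MCF-10A exosomes are at 0 for every member left of the dashed line.

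The members fell into few patterns of detection. The library labelled MCF-10A cell alone held 16 members: miR-154, miR-323-5p, miR-337-3p, miR-337-5p, miR-380, miR-431, miR-496, miR-539, miR-544, miR-654-3p, miR-655, miR-656, miR-665, miR-668, miR-770-5p and miR-1197. Their levels ran from 1.90 for miR-323-5p (3 reads) to 9.71 for miR-654-3p (915 reads). It shared 18 with cancer-line exosomes only and 3 (miR-299-3p, miR-758 and miR-889) with exosomes of MCF-10A only. Every library except that of cancer-line cells held 7: miR-134, miR-323-3p, miR-369-5p, miR-381, miR-382, miR-409-3p and miR-485-3p. Cancer-line cells and exosomes and the library with the label MCF-10A cell held 5: miR-127-3p, miR-127-5p, miR-493, miR-494 and miR-1185. miR-369-3p, miR-379 and miR-411 were above 0 in all 4 libraries, and miR-300, miR-412 and miR-541 in none. Every member seen in any library was thus also seen in the library labelled MCF-10A cell. This library was the deepest, with 72.2% of all 1100 names above 0. Over all names, 3.64% were seen in cancer-line cells but not there, and 1.36% in exosomes of MCF-10A but not there. Of the 508 names above 0 in cancer-line exosomes, 490 were also above 0 there. Names in general were thus seldom missing from it. Shares of all names in the other patterns were not counted.

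Exosomes of the cancer line were compared with exosomes of the non-tumorigenic line. Among members beside MEG3 and RTL1, miR-127-3p led; with miR-136 it is known to pair with the RTL1 transcript, to which it is antisense. miR-127-3p was at 12.54 in cancer-line exosomes (913 reads) and at 0 in exosomes of MCF-10A, with 1.24 in cancer-line cells (1 read) and 11.79 in the library with the label MCF-10A cell (3872 reads). It was therefore at least 249-fold higher in cancer-line exosomes than in exosomes of MCF-10A, with the latter set at 3 reads. miR-432 was at 10.18 in cancer-line exosomes (178 reads), 0 in cancer-line cells, 0 in exosomes of MCF-10A and 7.49 in the library with the label MCF-10A cell (196 reads). It is among the 18 members seen only in cancer-line exosomes and the library with the label MCF-10A cell. Its level was at least 48.6-fold higher in cancer-line exosomes than in exosomes of MCF-10A. miR-493, reported to target the growth factor receptor IGF1R, was at 8.17, 1.24, 0 and 6.75 in those libraries, respectively (44, 1, 0 and 117 reads). Its bound between the exosome libraries was at least 12-fold. miR-370, reported to target CPT1A of fatty acid oxidation, had 14, 0, 0 and 116 reads. miR-127-5p had 12, 1, 0 and 2484 reads, and miR-136 had 11, 0, 0 and 4448. These low counts gave bounds of at least 3.82-fold for miR-370, 3.27-fold for miR-127-5p and 3.0-fold for miR-136. miR-433, known to target FGF20, had 5, 0, 0 and 243 reads. None of the 12 members on the MEG3 side had a read in exosomes of MCF-10A, but 7 did in cancer-line exosomes and 12 in the library with the label MCF-10A cell. Over all 1100 names, 39.6%, 46.2% and 72.2% were above 0 in these libraries, in that order.

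From miR-379 to miR-656, exosomes of MCF-10A did hold the leading members, at lower levels. miR-379, which opens this group, was at 13.04 in cancer-line exosomes (1291 reads), 1.24 in cancer-line cells (1 read), 7.17 in exosomes of MCF-10A (18 reads) and 11.23 in the library with the label MCF-10A cell (2626 reads). It was the highest member of both exosome libraries, and it was 58.7-fold higher in those of the cancer line (95% counting interval 37.0 to 99.4). miR-369-3p, known to bind the AU-rich element of the TNF mRNA, was at 11.29, 3.20, 4.64 and 9.92 in the same order (384, 6, 3 and 1059 reads). It was the highest member of cancer-line cells, and its exosome ratio was 105 (35.6 to 510). miR-411 was at 10.47, 1.24, 5.83 and 10.89 (217, 1, 7 and 2075 reads). Its level was 1.34-fold lower in cancer-line exosomes than in the library labelled MCF-10A cell (1.16 to 1.55), a direction that turned under other scalings (3.34-fold higher with upper-quartile scaling). It was 25.4-fold higher than in exosomes of MCF-10A (12.1 to 63.9). miR-382 was at 9.61, 0, 5.35 and 7.37 (120, 0, 5 and 180 reads), and its exosome ratio was 19.6 (8.19 to 61.6). miR-381 was at 8.84, 0, 4.64 and 9.58 (70, 0, 3 and 836 reads), with a ratio of 19.1 (6.27 to 94.8). miR-409-3p, reported to target angiogenin, was at 8.84, 0, 3.17 and 7.85 (70, 0, 1 and 251 reads), with a ratio of 57.3 (9.95 to 2295). The counting intervals of these 6 members overlapped one another. Their exosome ratios were not compared directly, so no order among them is given.

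Further members of this group had reads in cancer-line exosomes but none in those of MCF-10A. miR-494 was at 8.88, 1.24, 0 and 7.86 (72, 1, 0 and 253 reads) and at least 19.6-fold higher. miR-410 was at 7.71, 0, 0 and 9.33 (32, 0, 0 and 703 reads) and at least 8.73-fold higher. miR-495, reported to target BDNF, was at 6.19, 0, 0 and 10.32 (11, 0, 0 and 1397 reads), with a bound of 3.0-fold. The other 18 members above 0 in cancer-line exosomes had 1 to 9 reads there. They were miR-409-5p with 8, miR-376c and miR-487b with 7, miR-134 and miR-376b with 6, miR-433 with 5, miR-329, miR-369-5p and miR-485-5p with 3, miR-487a and miR-543 with 2, and miR-299-5p, miR-323-3p, miR-376a, miR-377, miR-485-3p, miR-654-5p and miR-1185 with 1 each. miR-134, which restrains LIMK1 in dendritic spines, had 2 reads in exosomes of MCF-10A, as had miR-323-3p and miR-369-5p, and miR-485-3p had 1. At these counts a difference between the exosome libraries was not detectable for members with 3 or fewer reads in each.

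Exosomes of MCF-10A held a few members that those of the cancer line lacked: miR-889 at 5.04 (4 reads), miR-299-3p at 4.64 (3 reads) and miR-758 at 3.17 (1 read). These differences rest on 4 or fewer reads. Altogether 23 of the 55 members were above 0 in cancer-line exosomes only, 3 in exosomes of MCF-10A only, 10 in both and 19 in neither. Of all 1100 names, 11.8% were above 0 in cancer-line exosomes only and 5.27% in exosomes of MCF-10A only. The summed level of the members was 55.1-fold higher in cancer-line exosomes (95% counting interval 41.9 to 73.9).

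To be called, a name had to reach 10 reads per 10000000 in either library, with a 4-fold difference of the deposited levels. Between the exosome libraries 29 of the 55 members passed the minimum, 24 of them 4-fold higher in the cancer line and 2 lower, where 29.3% of the 505 names that passed were higher and 19% lower. Members that passed through 1 library alone had to differ, so these counts, here and below, describe the comparison and are not evidence of a difference. The 2 lower members were miR-299-3p and miR-889, which rest on 3 and 4 reads. The median log2 difference was 5.54 over the members that passed and 0.59 over all names that passed. With members at 0 set at 3 reads, 22 members passed, 11 of them higher, 0 lower and 11 within 4-fold, and the median was 2.48. Upper-quartile scaling, by which log2 ratios fell by 0.69, left 24 members higher and 2 lower and took the median over all names to -0.095. A read rule asked for at least 10 reads in 1 library and a counting interval of the ratio clear of 1. Under it 15 members passed, all with at least 10 reads in cancer-line exosomes. Of these, 15 were higher and 0 lower, where 50% of 342 names were higher and 28.7% lower.

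Exosomes of the cancer line were next compared with the cells of the same line, both from cultures kept in the same medium with FBS. The same medium does not make serum equal in both libraries, since exosomes are shed into it. Fraction and any serum RNA carried into the exosome library therefore cannot be told apart here. Such carry-over was not tested. This comparison shares the MDA-MB-231 exosome library with the previous one. The 8 members above 0 in cancer-line cells were miR-369-3p with 6 reads and miR-127-3p, miR-127-5p, miR-379, miR-411, miR-493, miR-494 and miR-1185 with 1 read each. At a depth of 7346076 reads, the cells thus held almost none of the cluster. miR-379 was 6187-fold higher in the exosomes (95% counting interval 1108 to 244552), miR-127-3p 4375-fold (783 to 173003) and miR-411 1040-fold (185 to 41261). miR-369-3p, with the most reads in the cells, was 307-fold higher (140 to 841). Their intervals are wide because each rests on 6 or fewer reads in the cells. For members at 0 in the cells the bounds were at least 284-fold for miR-432, 192-fold for miR-382, 112-fold for miR-381 and miR-409-3p, 51.1-fold for miR-410, 22.4-fold for miR-370 and 17.6-fold for miR-136 and miR-495.

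All 33 members above 0 in cancer-line exosomes had a higher level there than in the cells, 25 of them with 0 reads in the cells, and 22 members were at 0 in both. No member was seen in the cells only, beside 10.7% of all names, and 5.45% of all names were seen in the exosomes only. Of the 55 members, 26 passed the minimum, and 26 were 4-fold higher and 0 lower, beside 22.2% higher and 13.4% lower of 499 names. Under the read rule 15 members passed, and 15 were higher and 0 lower, beside 32.3% and 36.3% of 427 names. The median log2 difference was 6.19 over the members that passed and -0.09 over all names that passed, and 5.37 for the members with those at 0 set at 3 reads. Upper-quartile scaling, by which log2 ratios fell by 0.46, moved the split over all names from 111 higher and 67 lower to 99 and 98, and left the members at 26 and 0. The summed level was 1289-fold higher in exosomes than in cells (753 to 2424).

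**Figure D2:**
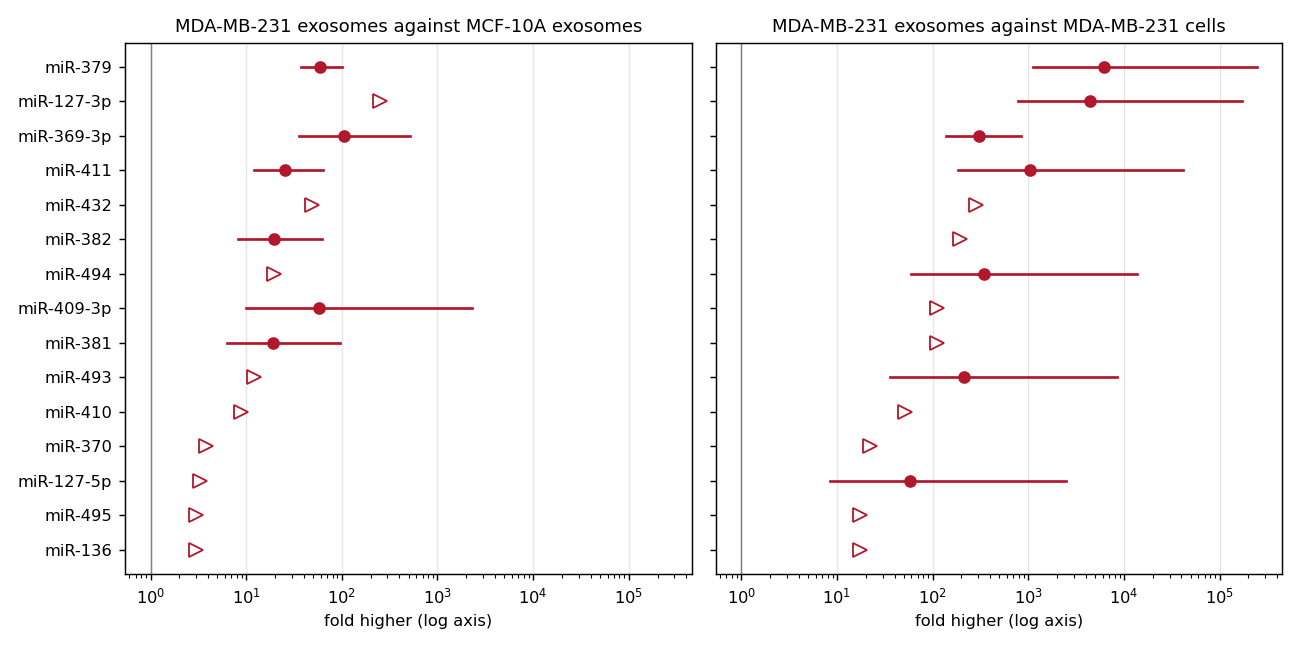
Fold by which the 15 members with at least 10 reads in MDA-MB-231 exosomes were higher there than in MCF-10A exosomes (left) and MDA-MB-231 cells (right), on a log axis, 1 library each. Filled points have the 95% counting interval as a bar, and open triangles are lower bounds for members at 0 reads in the other library. All 15 lie above 1, from at least 3.0-fold for miR-136 and miR-495 to 6187-fold for miR-379 against the cells. They were picked for their reads in MDA-MB-231 exosomes, so their side of 1 is not evidence of a difference. By the read rule 50% (left) and 32.3% (right) of all names that passed were higher.

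Names that mark other tissues moved with the cluster in cancer-line exosomes. In cancer-line exosomes, cancer-line cells and exosomes of MCF-10A the summed level of the 5 erythroid names (miR-451, miR-144 and miR-486 arms) was 41261, 193 and 239 reads per 10000000. miR-122, the hepatocyte miRNA, was at 28325, 20.4 and 79.7. The 6 stromal names summed to 61393, 76.2 and 183, and the 4 leukocyte names to 31098, 1169 and 1498. These lists thus had the same order as the cluster, highest in cancer-line exosomes, where all their names were above 0. In cancer-line cells miR-144, miR-150, miR-223 and miR-199b-5p were at 0, and in exosomes of MCF-10A miR-145, miR-199a-5p, miR-199b-5p and miR-214 were. The 2 endothelial names (miR-126 arms) summed to 82693, 3004 and 2949, and the 7 muscle names to 1807, 10.9 and 15.9, with 4, 2 and 1 of them above 0. The neuronal miR-124 was at 0 in these 3 libraries. The sum of the neural list went the other way, with 1768, 2784 and 3523 (5, 6 and 3 of its 8 names above 0), as did that of the epithelial list with 2322, 4592 and 440979. Single names did not all follow these sums. Between the exosome libraries 4 neural names were higher in the cancer line and 1 lower, and 0 epithelial names were higher and 7 lower. Against cancer-line cells, 2 neural names were higher in the exosomes and 5 lower, and 3 epithelial names were higher and 4 lower. The placental 19q13 cluster, another imprinted miRNA cluster, summed to 58.7, 39.5 and 0, with 3, 4 and 0 of its 35 names above 0. Whether these lists and the 14q32 members share a source was not tested.

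**Figure D3:**
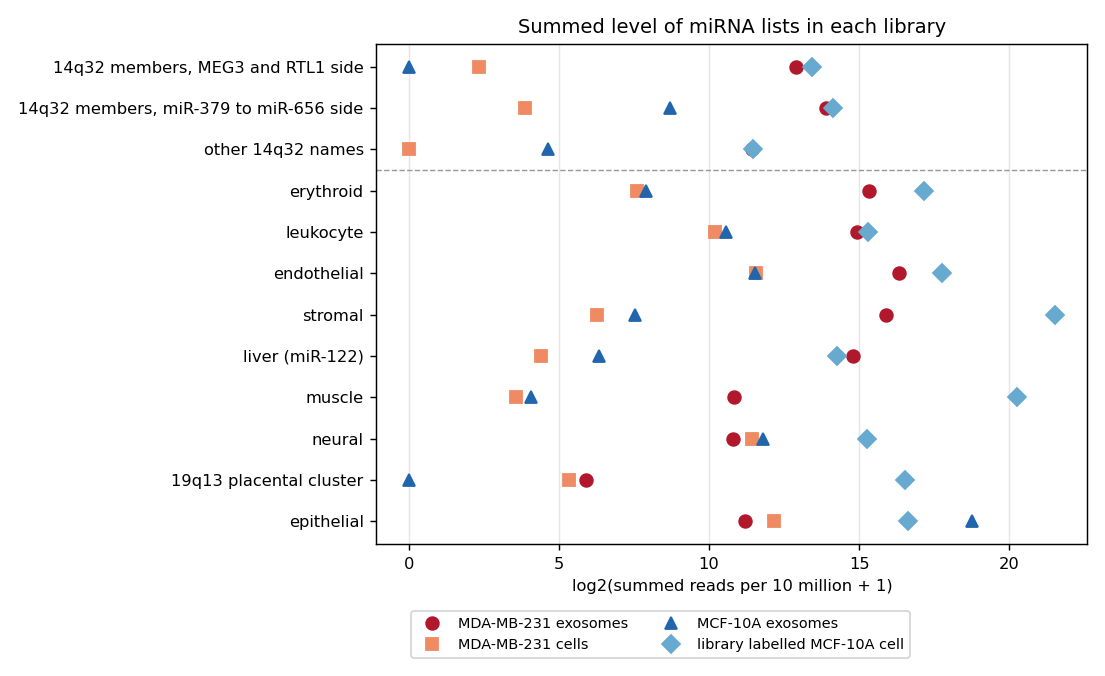
Summed level of each miRNA list, as log2(summed reads per 10000000 + 1), in the 4 libraries (1 point each); the lists above the dashed line are from 14q32. The 14q32 lists, erythroid, leukocyte, stromal and liver names are all higher in the exosomes of MDA-MB-231 than in its cells and in MCF-10A exosomes, while the list sums of the library labelled MCF-10A cell are the highest except for liver and epithelial names.

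The cells of the lines were compared through the library labelled MCF-10A cell. Its 10 highest members were miR-136 at 11.99 (4448 reads), miR-127-3p at 11.79, miR-376c at 11.39 (2934 reads), miR-379 at 11.23, miR-127-5p at 11.15, miR-411 at 10.89, miR-495 at 10.32, miR-369-3p at 9.92, miR-654-3p at 9.71 (915 reads) and miR-377 at 9.70 (909 reads). Of these, miR-136, miR-376c, miR-495, miR-654-3p and miR-377 had 0 reads in cancer-line cells. In cancer-line cells, miR-136 was at least 996-fold lower, miR-376c at least 657-fold and miR-495 at least 313-fold. With 1 read in cancer-line cells, miR-127-3p was 2601-fold lower there (95% counting interval 466 to 102740), and miR-369-3p, with 6 reads, was 119-fold lower (54.3 to 324). All 52 members seen in either library were higher in the library labelled MCF-10A cell, 44 of them with 0 reads in cancer-line cells. Of all 1100 names, 24.4% were seen only in the library labelled MCF-10A cell and 3.64% only in cancer-line cells.

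The members' summed level was 1637-fold lower in cancer-line cells (957 to 3074). Of the 55, 48 passed the minimum, and 48 were lower and 0 higher, beside 54.3% lower and 17.4% higher of 665 names. The read rule gave the same 48 and 0, beside 67.8% lower and 26.5% higher of 661. The median log2 difference was -7.62 over the members that passed and -2.83 over all names, and -5.51 for the members with those at 0 set at 3 reads. The whole comparison was thus shifted towards the library labelled MCF-10A cell. Upper-quartile scaling raised log2 ratios by 2.42, changed the split over all names from 116 higher and 361 lower to 225 and 278, and left 0 members higher and 48 lower. Other lists were high as well in the library labelled MCF-10A cell: the stromal list summed to 3012900 reads per 10000000, muscle to 1243180, endothelial to 220454, erythroid to 144903, leukocyte to 40348, neural to 39265 and miR-122 to 19618. Placental names summed to 93382, with 35 of 35 above 0. In the same library the cluster was 0.559% of the reads outside these lists, against 0.290% of all reads.

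Exosomes of MCF-10A were last compared with the library labelled MCF-10A cell, which this comparison shares with the one between cells. miR-379 was 16.7-fold lower in the exosomes (95% counting interval 10.6 to 28.3), miR-411 34.0-fold (16.5 to 84.7), miR-889 20.9-fold (8.12 to 76.8) and miR-382 4.13-fold (1.74 to 12.9). miR-382 was among the members that differed least, and miR-299-3p, 1.87-fold lower with 3 reads, had a counting interval that includes no difference (0.605 to 9.40). miR-136 was at least 170-fold lower and miR-127-3p at least 148-fold. All 13 members above 0 in exosomes of MCF-10A were also seen in the library labelled MCF-10A cell, and 39 were seen there only. Over all 1100 names, 33.9% were seen only in the library labelled MCF-10A cell and 1.36% only in the exosomes, so names in general showed this pattern.

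The summed level was 69.9-fold lower in exosomes of MCF-10A (53.3 to 93.6). Of the 55 members 48 passed the minimum, and 46 were lower and 0 higher, beside 57.2% lower and 15.4% higher of 661 names. The read rule gave 41 lower and 0 higher, beside 62.2% and 18.9% of 629. The median log2 difference was -6.69 over the members that passed, -3.27 over all names and -3.39 for the members with those at 0 set at 3 reads. Upper-quartile scaling raised log2 ratios by 2.75 and changed the split over all names from 102 higher and 378 lower to 218 and 287, with 40 members lower and 0 higher by the 4-fold rule. Under it 3 of the 13 members with reads in both libraries were higher in the exosomes: miR-299-3p (3.58-fold), miR-758 (1.72-fold) and miR-382 (1.63-fold).

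The make-up of the cluster differed between the libraries in which it was abundant. The 3 highest members held 74.0% of the cluster's reads in cancer-line exosomes and 35.5% in the library with the label MCF-10A cell. To reach 90% of those reads took 7 members in the first and 22 in the second. Reads in cancer-line exosomes were thus concentrated in miR-379, miR-127-3p and miR-369-3p, and in the library with the label MCF-10A cell they were spread over many members. In exosomes of MCF-10A the 3 highest held 57.7% of 52 reads. The MEG3 side held 33.6% of the cluster's reads in cancer-line exosomes (Wilson 95% interval 32.1 to 35.2) and 37.8% in the library with the label MCF-10A cell (37.3 to 38.4). It held 0 of 52 reads in exosomes of MCF-10A, which allows a share of up to 6.88%.

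Set side by side as deposited, 8 members were higher in cancer-line exosomes than in the library labelled MCF-10A cell, each with a counting interval that excludes no difference: miR-432 (6.48-fold, 5.26 to 7.98), miR-382 (4.76-fold), miR-379 (3.51-fold, 3.28 to 3.75), miR-493 (2.68-fold), miR-369-3p (2.59-fold), miR-494 (2.03-fold), miR-409-3p (1.99-fold) and miR-127-3p (1.68-fold). The other 44 members seen were higher in the library labelled MCF-10A cell, 32 of them with such an interval. Names as a whole leaned the same way, with a median log2 difference of -2.445 as deposited and -0.32 under upper-quartile scaling. The direction of this split was thus not particular to the members. In the library labelled MCF-10A cell miR-376c was 58.7-fold higher (28.5 to 146), miR-136 56.7-fold (31.6 to 114), miR-127-5p 29-fold (16.6 to 56.2) and miR-495 17.8-fold (9.92 to 35.7). miR-377, with 1 read in the exosomes, was 127-fold higher (22.8 to 5037). Members with 0 reads in cancer-line exosomes were at least 42.7-fold higher for miR-654-3p, 34.0-fold for miR-889, 17.5-fold for miR-337-3p, 16.5-fold for miR-655 and 15.5-fold for miR-154. The summed level differed by 1.27-fold (1.23 to 1.31), lower in cancer-line exosomes. The direction of that sum and of several members depended on the scaling. With upper-quartile scaling the sum was 3.53-fold higher in cancer-line exosomes, and 16 members were higher there and 36 lower. The 8 that changed side were miR-370, miR-376b, miR-381, miR-409-5p, miR-410, miR-411, miR-485-5p and miR-654-5p. With trimmed mean of M scaling the sum was 1.07-fold higher, with 10 members higher and 42 lower. Scaled to reads outside the members and the lists of other tissues, it was 2.4-fold lower, with 7 higher and 45 lower, and miR-127-3p was then 1.12-fold lower. These libraries differ in line, fraction, medium and serum, which cannot be told apart. Over the 33 members above 0 in both, Pearson's r of the levels was 0.464 and Spearman's rho 0.425, as a description of names that share the same 2 libraries. Over the 490 of all names above 0 in both, r was 0.699. With at least 5 reads in each library, r was 0.276 over 21 members and 0.669 over all such names.

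**Figure D4:**
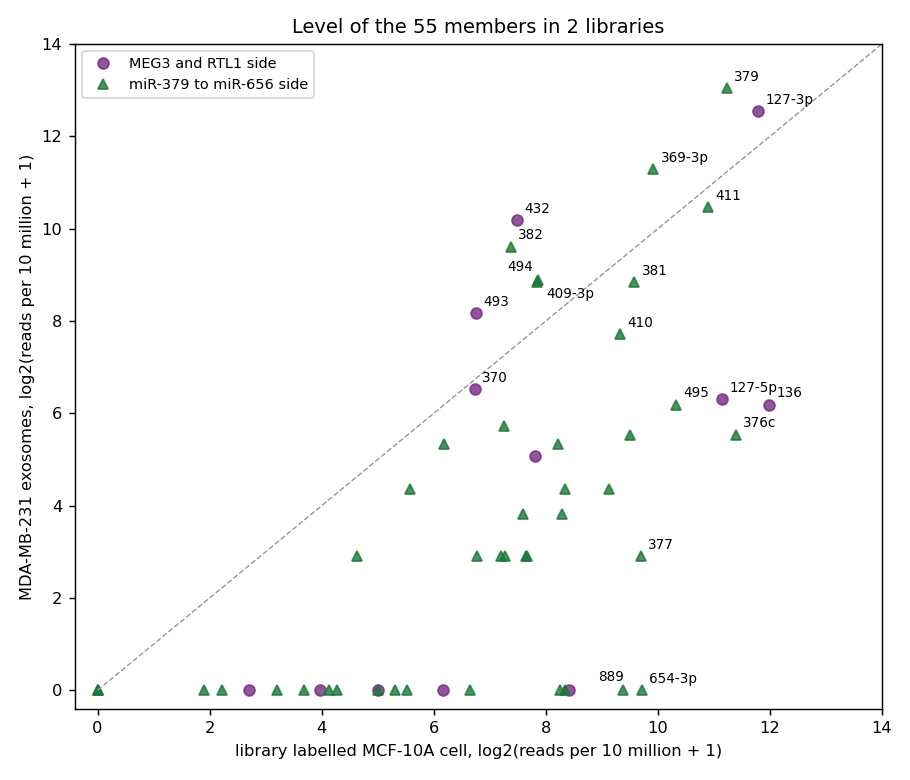
Level of each of the 55 members in MDA-MB-231 exosomes (vertical) against the library labelled MCF-10A cell (horizontal), both as log2(reads per 10000000 + 1), 1 library each; the dashed line marks equal levels as deposited, and other scalings put 7 to 16 members on its upper side. The 8 members above the line include miR-432, miR-382 and miR-379, and miR-136, miR-376c, miR-127-5p and miR-377 lie far below it.

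Both arms of 1 hairpin come from the same precursor, so their ratio does not depend on the library total. Further 14q32 names, mostly the star arms, were available for 14 of 34 listed. They were above 0 for 8 in cancer-line exosomes, 0 in cancer-line cells, 2 in exosomes of MCF-10A and 12 in the library with the label MCF-10A cell, and summed to 2773, 0, 23.9 and 2827 reads per 10000000. This order is that of the members themselves, and the sum was 116-fold higher in cancer-line exosomes than in exosomes of MCF-10A (39.4 to 564). The 3 highest in cancer-line exosomes are shown for comparison with their partner arms above, with the seed in capitals.
miR-493*: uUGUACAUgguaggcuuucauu
miR-376a*: gUAGAUUCuccuucuaugagua
miR-136*: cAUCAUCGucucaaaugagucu
miR-493* was at 10.85 in cancer-line exosomes (283 reads), 0 in cancer-line cells, 0 in exosomes of MCF-10A and 9.08 in the library with the label MCF-10A cell (591 reads). It exceeded its partner miR-493 in both libraries. miR-376a* was at 8.71, 0, 4.08 and 9.29 in the same order, and miR-136* at 7.92, 0, 0 and 9.82.

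Of 19 hairpins with both arms named, 10 had at least 10 reads in cancer-line exosomes. The leading arm was the same in that library and in the library with the label MCF-10A cell for 9 of them, and the Wilson intervals of the arm share lay apart for 7. Among the 9, miR-541 had only 3 reads in the library with the label MCF-10A cell, so its leading arm there is uncertain. At miR-127 the 3p arm held 98.7% of both arms' reads in cancer-line exosomes (97.7 to 99.3) and 60.9% in the library with the label MCF-10A cell (59.7 to 62.1). At miR-369 it held 99.2% (97.7 to 99.7) and 63.4% (61.0 to 65.7), and at miR-409 89.7% (81.0 to 94.7) and 60.0% (55.3 to 64.6). In these 3 hairpins the minor arm was thus scarcer in the exosomes. The same held for miR-379, miR-376a and miR-411, whose 3p arm is the minor one, with 0.309% against 3.67%, 1.54% against 14.8% and 7.66% against 16.8%. In the RefSeq table miR-376a lies at 2 hairpins and miR-376a* at 1 of them, so the arm share of miR-376a can mix reads of both. At miR-136 the leading arm differed: the 3p arm miR-136* held 77.1% in cancer-line exosomes (63.5 to 86.7, 48 reads in all) and 18.2% in the library with the label MCF-10A cell (17.2 to 19.2). For miR-432, miR-493 and miR-541 the intervals overlapped. The other hairpins with both arms among the members could be read only in the library labelled MCF-10A cell. There the 3p arm held 98.6% at miR-323 (217 of its reads against 3), 97.2% at miR-654 (915 against 26), 82.9% at miR-337 (374 against 77) and 75.8% at miR-485 (160 against 51), but 18.1% at miR-299 (49 against 222). With 1 library each, the spread of an arm share between replicates is unknown.

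**Figure D5:**
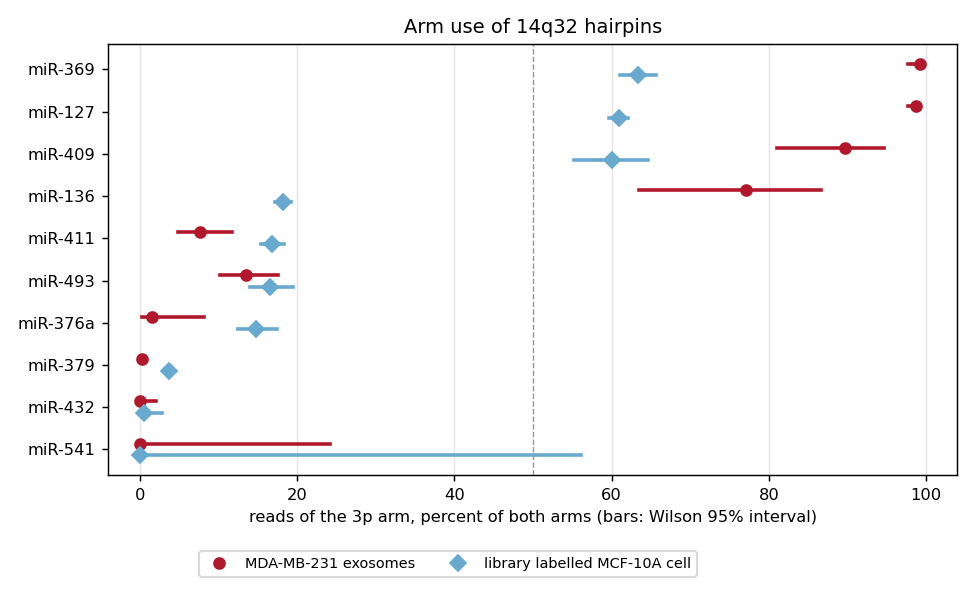
Share of reads from the 3p arm, as a percent of both arms, for the 10 hairpins with at least 10 reads in MDA-MB-231 exosomes; points are single libraries and bars are Wilson 95% intervals. Points of MDA-MB-231 exosomes lie nearer to 0 or 100 than those of the library labelled MCF-10A cell for miR-127, miR-369, miR-409, miR-411, miR-376a and miR-379, and miR-136 crosses the dashed line at 50.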

How the data were processed

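Per the labels' protocols, TRIZOL reagents were used for RNA, inserts of 17 to 52 nt were kept, and a Genome Analyzer IIx read them. The submitters' processing notes list Novoalign, edgeR and hg18 without versions or roles. The values of 1100 miRNA names per library are deposited on a log2 scale with 2 decimals. Their scale was worked out from the values: they sum to about 10000000 per library after subtracting 1, and low values are whole multiples of 1 read. Whole reads were recovered for 100% of the names low enough to resolve, and larger counts only to the rounding of 0.347%.

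The members and lists were chosen with earlier results of these data known. Named with values were members with at least 10 reads outside the library labelled MCF-10A cell, the 10 highest members of that library, every member above 0 in MDA-MB-231 cells or MCF-10A exosomes, both arms of hairpins with both arms listed, members at 0 throughout, and the 3 highest other 14q32 names. Further names were chosen after their values were seen. Older names were matched to arms by hand. Ratio intervals are exact conditional binomial and share intervals are Wilson, both at 95%. Names at 0 were set at a floor of 3 reads per library for bounds. Bounds carry no counting error of the library with reads. Read recovery and calling were tested on simulated data. Python 3.11.15, scipy 1.17.1 and pandas 2.3.3 were used. Other scalings, pseudocounts, minimums, fold sizes and a read rule were tried.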

Additional observations from a re-analysis of the deposited data

Results flagged for a closer look

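The exosome to cell difference of the cluster had opposite signs in the 2 lines. For MDA-MB-231, the log2 summed level of exosomes exceeded that of cells by 10.33, and for MCF-10A it fell by 6.13 from the library labelled MCF-10A cell to the exosomes. The difference between the lines was 16.46, and with 1 library per group it was not tested. Of the 55 members, 33 (60%) were higher in exosomes for MDA-MB-231 and lower in exosomes for MCF-10A, where 192 of all 1100 names (17.5%) were. As deposited, no member moved the same way in both lines, and 22 did neither; under upper-quartile scaling miR-382 was higher in exosomes in both. The MCF-10A value uses the library labelled MCF-10A cell, in which names of other tissues held 48.1% of the reads.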

How the results depend on the processing

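The calls of members by the 4-fold rule and the medians over members kept their direction under the alternatives tried, but some single ratios did not. Between the exosome libraries, members called higher went from 24 to 15 under the read rule and to 11 of the 22 that passed with names at 0 set at 3 reads, and members called lower from 2 to 1 with a pseudocount of 10 per 10000000, to 0 with a minimum of 50 per 10000000 and to 0 under the read rule. For MDA-MB-231 exosomes against cells, members called higher went from 26 to 16 with a minimum of 50 and to 15 under the read rule. These settings test fewer names or compress low values. The log2 ratio of the summed level, for which scalings and left-out members were chosen after seeing the data, was 5.09 under upper-quartile scaling between the exosome libraries (5.78 as deposited). It was -8.25 under that scaling and -11.63 with scaling to reads outside the lists of other tissues for MDA-MB-231 cells against the library labelled MCF-10A cell (-10.68 as deposited). For MCF-10A exosomes against that library it was -3.38 and -7.08 (-6.13 as deposited). For MDA-MB-231 exosomes against that library it was -0.34 as deposited, 1.82 under upper-quartile scaling, 0.093 under trimmed mean of M scaling and -1.26 with scaling to reads outside those lists. Ratios of single members under these scalings were also chosen after seeing the data. In that last comparison upper-quartile scaling turned the log2 ratios of miR-370 (to 1.95), miR-411 (1.74), miR-381 (1.42), miR-376b (1.30), miR-485-5p (0.91), miR-409-5p (0.62), miR-410 (0.54) and miR-654-5p (0.30). Trimmed mean of M scaling turned miR-370 (to 0.22) and miR-411 (0.014), and scaling outside the lists turned miR-127-3p (to -0.17). Upper-quartile scaling also turned miR-299-3p (to 1.84), miR-758 (0.78) and miR-382 (0.70) for MCF-10A exosomes against the library labelled MCF-10A cell. Between the exosome libraries it turned miR-369-5p (to -0.39) and the median over all names (from 0.59 to -0.095). Trimmed mean of M scaling changed log2 ratios by -0.28, -0.13, 0.41 and 0.19 in the first 4 comparisons of the text, in order. Scaling to reads outside the other-tissue lists changed them by 0.04, 0.04, -0.96 and -0.96. Without miR-127-3p the ratio was 5.35 between the exosome libraries and 10.01 for MDA-MB-231 exosomes against cells, and without miR-379 it was 5.73 and 9.78. The share of the cluster in the library labelled MCF-10A cell was 0.559% with the reads outside those lists as denominator. Medians over the members that passed moved in 16 of 28 alternatives, with no change of sign.

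No paired analysis was possible because each group has 1 library. Depth limits MDA-MB-231 and MCF-10A exosomes most: 1 read is worth 6.52 and 7.97 reads per 10000000 there, against 1.36 and 0.914 in the cell libraries. No replicate was available to leave out.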
